A study of Mus musculus with 6 samples.

Results

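Transcripts of 7 sarcomeric myosin heavy chain genes were examined in C2C12 myotubes after knockdown of DJ-1. The genes are MYH1, MYH2, MYH3, MYH4, MYH6, MYH7 and MYH8, which are 7 of the 30854 gene names on the array. They were taken by name from the probe list and carry 13 of its 45281 probes. The set was chosen from the difference between DJ-1 siRNA and scramble siRNA in these same 6 arrays, so that this difference is given for them as a description, with no p-value for any of them.

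C2C12 cells are mouse myoblasts, which stop dividing and fuse to myotubes in medium low in serum. Myoblasts were transfected with 60 nM of scramble siRNA or of siRNA against Dj1, the gene of the redox-sensitive protein DJ-1, were moved to differentiation medium after 48 h and were harvested after 96 h in it. RNA of 3 samples per group was hybridized to Illumina mouse BeadChip arrays, on which each probe sits on many beads. Both groups passed through the same transfection and differentiation, each group rests on 1 siRNA treatment in 1 cell line, and the labels do not say whether the 3 samples of a group were separate cultures, so that p-values measure the spread between these samples.

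Myosin heavy chains are the motor proteins of the thick filament, and the isoform that a fibre contains sets how fast it contracts. Developing muscle uses the embryonic chain (Myh3) and the perinatal chain (Myh8), and adult fast fibres replace them with type IIa (Myh2), type IIx (Myh1) or type IIb (Myh4). Slow fibres use the beta chain (Myh7), which they share with the heart, whereas the alpha chain (Myh6) is known mainly from heart muscle.

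The fast and developmental genes lie in a row on mouse chromosome 11, in the order Myh3, Myh2, Myh1, Myh4 and Myh8, with no other protein-coding gene of the RefSeq table between them. Myh6 and Myh7 are neighbours on chromosome 14. The 250 bases before the start of each of the 5 genes on chromosome 11 are shown because the probes of 4 of them were lowered together. They come from RefSeq on GRCm38.p6, plus strand, at chr11:67078050-67078299 for Myh3, chr11:67170777-67171026 for Myh2, chr11:67199852-67200101 for Myh1, chr11:67237562-67237811 for Myh4 and chr11:67276874-67277123 for Myh8. Capitals mark the letters TATAAA on the strand of the gene and the longest run shared by Myh1, Myh2, Myh4 and Myh8.
Myh3: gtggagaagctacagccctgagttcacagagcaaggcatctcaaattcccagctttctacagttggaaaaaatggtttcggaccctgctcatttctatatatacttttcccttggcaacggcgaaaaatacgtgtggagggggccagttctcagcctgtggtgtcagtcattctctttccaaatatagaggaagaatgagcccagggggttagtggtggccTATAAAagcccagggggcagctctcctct
Myh2: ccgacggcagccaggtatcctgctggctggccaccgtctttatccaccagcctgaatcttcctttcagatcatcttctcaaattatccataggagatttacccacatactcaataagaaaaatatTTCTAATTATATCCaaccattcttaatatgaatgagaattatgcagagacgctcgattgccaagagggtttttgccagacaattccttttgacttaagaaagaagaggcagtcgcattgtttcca
Myh1: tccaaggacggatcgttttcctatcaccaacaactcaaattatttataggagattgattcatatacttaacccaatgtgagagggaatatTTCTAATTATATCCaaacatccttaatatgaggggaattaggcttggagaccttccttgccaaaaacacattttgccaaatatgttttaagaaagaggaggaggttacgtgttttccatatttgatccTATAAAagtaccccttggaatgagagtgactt
Myh4: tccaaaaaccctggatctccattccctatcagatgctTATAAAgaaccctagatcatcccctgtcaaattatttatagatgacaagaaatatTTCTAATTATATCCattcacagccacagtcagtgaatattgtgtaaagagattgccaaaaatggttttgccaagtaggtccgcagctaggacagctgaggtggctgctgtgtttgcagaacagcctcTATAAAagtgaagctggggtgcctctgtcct
Myh8: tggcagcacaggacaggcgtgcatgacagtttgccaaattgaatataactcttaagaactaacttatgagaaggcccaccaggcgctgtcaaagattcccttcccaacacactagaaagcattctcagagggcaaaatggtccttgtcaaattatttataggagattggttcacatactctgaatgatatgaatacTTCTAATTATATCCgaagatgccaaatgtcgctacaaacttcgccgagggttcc

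The shared run, TTCTAATTATATCC, is 14 bases long and was found in 4 of the 32851 promoters of the table on either strand, which are those of these 4 genes. Myh3 does not hold it. Because the 4 genes were grouped by their values and the run was then searched for, it is a description of their sequence. Among motifs, a MEF2 box was found in Myh1, Myh4 and Myh8 and in 2.92% of all promoters. In each of these 3 genes it holds the letters TATAAA read on the opposite strand, so that both motifs overlap there. The E-box CANNTG was found in Myh3, Myh4, Myh8, Myh6 and Myh7 and in 66.2% of all promoters, the M-CAT letters CATTCC in Myh1, Myh4, Myh6 and Myh7 and in 12.6%, and a CArG box in Myh4 and in 1.47%. TATAAA itself was in 12.4% of promoters. Both strands of the 250 bases were read for every motif, and a match shows only that the letters are present. All 7 genes had an entry.

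The knockdown was examined first. Park7, the gene of DJ-1, has 1 probe (ILMN_2728754), whose normalized log2 signal was 13.60, 13.37 and 13.63 with scramble siRNA against 12.48, 12.49 and 12.15 after knockdown. In limma this was a log2 fold change of -1.16 with a standard error of 0.14 (adjusted p = 0.00344), with all 3 DJ-1 siRNA arrays below all 3 scramble arrays. Log2 values and percents of the scramble level, here and below, rest on signal corrected for background and quantile normalized, unless other processing is named. Signal not on a log2 scale, also where summed, is the deposited signal without correction or normalization. A probe is called detected on an array where its detection p, the share of negative controls that are brighter, is under 0.05.

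The adult fast chains were MYH1, MYH4 and MYH2, of which MYH1 alone was detected on all 6 arrays. For MYH1, the type IIx chain, the deposited signal of probe ILMN_2865744 was 10163.6, 7722.7 and 9369.9 with scramble siRNA against 2145.5, 2990.8 and 1475.3 after knockdown. Every DJ-1 siRNA array was below every scramble array, with replicate 3 the lowest. After normalization the log2 means were 13.15 ± 0.23 (SD, n = 3) and 10.96 ± 0.37 (SD, n = 3), a difference of -2.19, which is 21.9% of the scramble level. The second MYH1 probe, ILMN_2740259, read 1012.5, 932.2 and 1188.6 with scramble siRNA against 358.1, 451.6 and 288.9 after knockdown. Its groups did not overlap either, and its difference was -1.93. Both probes put the DJ-1 siRNA arrays in the same order.

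MYH4, the type IIb chain of the fastest fibres, has 1 probe (ILMN_1241214). Its signal was 717.1, 503.6 and 717.3 with scramble siRNA against 159.6, 181.1 and 154.8 after knockdown. Detection was reached on each scramble array but on only 1 of the 3 arrays with knockdown, and the lower group thus lay near background. The log2 difference was -3.72 as normalized and -1.91 without background correction, and only its direction was shared by both. For the same reason the order of MYH4 and MYH1 by size of difference depends on the processing, since the brighter MYH1 probe then gave -2.12.

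MYH2, the type IIa chain, has 1 probe (ILMN_1219423), which rests on the gene name given by the array alone, since it has no gene number and its accession is not in the RefSeq table. Its signal was 200.5, 271.4 and 207.6 with scramble siRNA against 151.5, 155.6 and 142.0 after knockdown. Each scramble array detected it, and 0 of the 3 arrays with knockdown did. Its level after knockdown is therefore a limit. On the normalized scale it was at least 2.07-fold lower, with the lowest signal of a detected probe on each DJ-1 siRNA array taken as that limit. This figure holds for the background correction used here, since the difference in measured log2 signal was -0.58 without background correction and -0.96 with an offset of 50, both smaller than that limit.

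**Figure D1:**
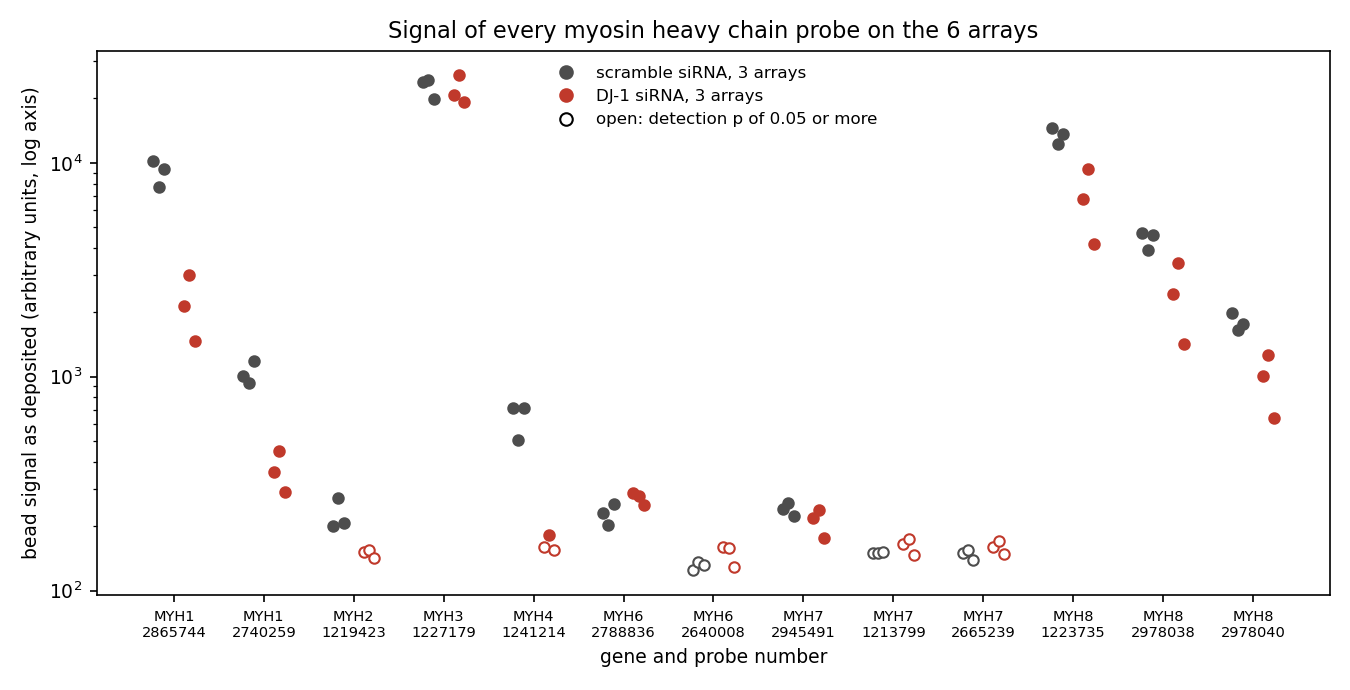
Deposited bead signal (arbitrary units, log axis) of the 13 myosin heavy chain probes on the 3 scramble siRNA arrays (grey) and the 3 DJ-1 siRNA arrays (red), with open circles where a probe was not detected. The DJ-1 siRNA points of MYH1, MYH2, MYH4 and MYH8 lie below their scramble points, and levels of different probes are not comparable.

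The developmental chains differed from each other. MYH8, the perinatal chain, has 3 probes, and the brightest (ILMN_1223735) read 14503.3, 12299.6 and 13561.4 with scramble siRNA against 6803.0, 9369.3 and 4188.9 after knockdown. Again all 3 DJ-1 siRNA arrays were below the scramble arrays, with replicate 3 the lowest and replicate 2 the highest. The log2 means were 13.73 ± 0.17 (SD, n = 3) and 12.62 ± 0.44 (SD, n = 3), a difference of -1.11, and the other MYH8 probes gave -1.01 (ILMN_2978038) and -1.03 (ILMN_2978040). These 3 probes span a range of scramble signal from 1651.4 to 14503.3 and showed nearly the same difference. MYH3, the embryonic chain, has 1 probe (ILMN_1227179), with signal of 23984.3, 24365.2 and 19931.0 with scramble siRNA against 20689.3, 25589.1 and 19297.6 after knockdown. These groups overlapped. The log2 means were 14.54 ± 0.15 (SD, n = 3) and 14.36 ± 0.08 (SD, n = 3), and the difference of -0.17 turned to 0.05 when arrays were instead scaled to their 75th percentile, so that no direction is given for MYH3.

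Each DJ-1 siRNA array ordered these chains alike. Relative to the scramble mean, the brighter MYH1 probe stood at 22.1%, 28.2% and 16.9% on DJ-1 siRNA arrays 1, 2 and 3. The brightest MYH8 probe stood at 49.0%, 60.8% and 33.1% on the same arrays. MYH3 stood at 86.3%, 94.7% and 85.4%. The measured signal of the 3 chains thus changed unequally within every array, which was not tested. How far a probe also binds transcripts of a related chain was not tested. In addition, fewer myotubes of a type and less of a transcript per myotube cannot be told apart in RNA from whole cultures.

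**Figure D2:**
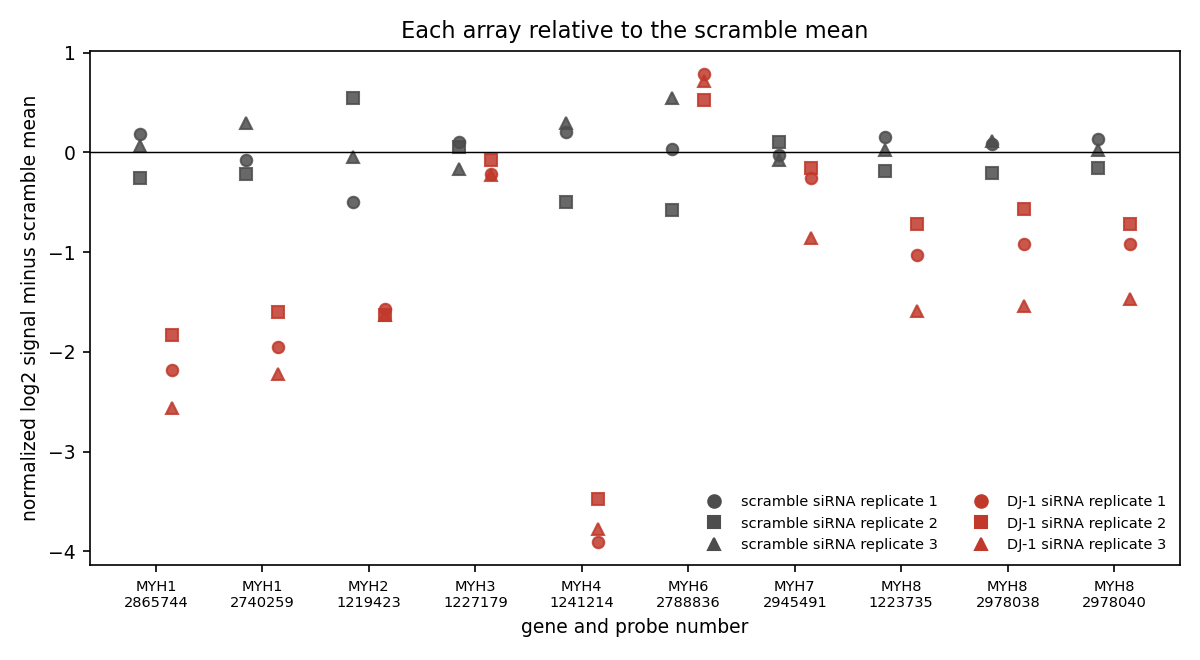
Normalized log2 signal of each array minus the scramble mean for the 10 myosin heavy chain probes detected on at least 3 arrays, with 1 symbol per replicate number and scramble siRNA in grey, DJ-1 siRNA in red. MYH1 lies near -2, MYH8 near -1 and MYH3 near 0 with groups that overlap, while MYH2 on 3 and MYH4 on 2 of the DJ-1 siRNA arrays were not detected.

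The cardiac and slow chains were dim. MYH7, the slow chain, was detected with 1 of its 3 probes (ILMN_2945491), at 240.6, 257.6 and 222.2 with scramble siRNA against 219.3, 237.4 and 175.4 after knockdown. The normalized groups did not overlap, whereas the deposited signals did. The difference of -0.42 rested largely on DJ-1 siRNA replicate 3, and it was -0.21 without that array and -0.16 without background correction. MYH6, the alpha chain, was detected with 1 of its 2 probes (ILMN_2788836), at 231.0, 202.9 and 254.6 with scramble siRNA against 286.7, 276.8 and 252.3 after knockdown. Its difference was 0.68, and the normalized groups overlapped. It was 0.39 without scramble replicate 2 and 0.30 without background correction. The remaining probes, 2 of MYH7 and 1 of MYH6, were detected on 0 of 6 arrays, and no fold is given for them. None of the 5 cardiomyocyte markers (Nppa, Nppb, Myl7, Tnni3 and Ryr2) was detected on any array.

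Of the 13 probes, 10 passed the filter of detection on at least 3 arrays. MYH2 passed it through the scramble group alone, and MYH4 through that group and 1 other array. An adjusted p under 0.05 was reached by 7 of the 10, all lower, where 13.6% of the 17890 probes tested were called lower, 16.5% higher and 30.1% in either direction. The groups did not overlap, in either direction, for 8 of the 10, where the share over all probes was 48.5%. As the genes were chosen on this contrast, nothing is read from these counts.

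The same differences were computed under 10 other ways of processing that can change them. MYH1, MYH2, MYH4 and MYH8 were lower in each of them. The size depended on the background correction for the dim probes of MYH2 and MYH4, so that neither is placed in an order with the other chains. The ranges were -2.37 to -1.996 for the brighter MYH1 probe and -1.31 to -0.87 for the brightest MYH8 probe.

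**Figure D3:**
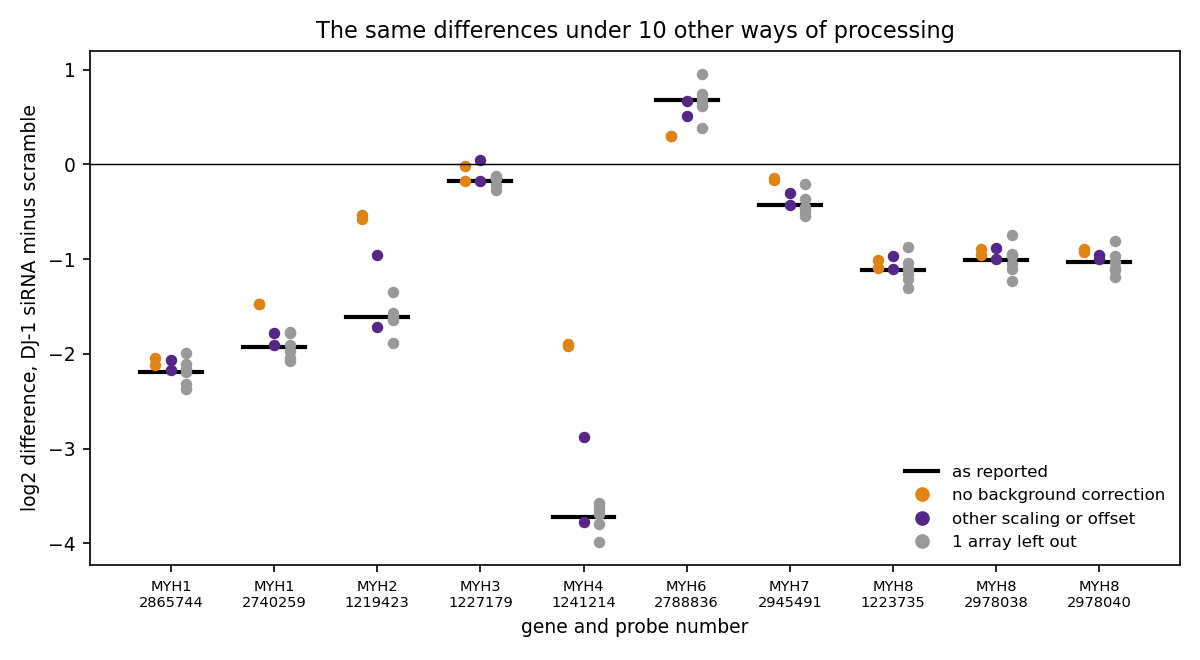
Log2 difference between DJ-1 siRNA and scramble siRNA (black bar, as reported) for the 10 detected myosin heavy chain probes beside 10 other ways of processing, which are no background correction (orange), other scaling or offset (purple) and 1 array left out (grey). The dim probes of MYH2 and MYH4 move most, and MYH3 crosses 0.

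The arrays themselves differed between groups. A scramble array detected 16985 to 18179 probes and a DJ-1 siRNA array 18408 to 18857. The standard error over beads had a median of 11.3, 8.30 and 8.66 with scramble siRNA against 7.17, 6.36 and 5.88 after knockdown. For the member probes this error was between 1.91% and 10.0% of the signal. The part of these differences in the results was not tested.

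Other class II myosin heavy chains had 3 tested probes in 2 genes. For Myh9, the main non-muscle chain, the brighter probe was at 0.06 on the log2 scale (limma, adjusted p = 0.777), and the dimmer one at 0.29 (adjusted p = 0.253), or 0.09 without background correction. Myh10, another non-muscle chain, was at -0.03 (adjusted p = 0.871). With limma, 0 of these probes reached an adjusted p under 0.05 and 0 an unadjusted p under 0.05. Myh11 of smooth muscle and Myh14 were detected on at most 1 array, and no probe is listed under Myh7b, Myh13 or Myh15.

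Among regulators of myosin heavy chain genes, 11 of 46 tested probes were lower and 7 were higher, and the median log2 fold change was 0.09 beside 0.05 over all probes. Over all 17890 tested probes, 13.6% were called lower and 16.5% higher, and no list here or below was tested against these shares. The 7 higher probes include a dim one of Nfatc1 that no scramble array detected. Other tested Nfatc1 probes were not called, at -0.28 and -0.26 on the brighter ones and at 0.15 on a dim one. Mef2c, a transcription factor that binds the MEF2 box and acts in muscle differentiation, fell on 3 probes detected on all 6 arrays. The brightest of them (ILMN_2732465) changed by -2.37 on the log2 scale with a standard error of 0.21 (limma, adjusted p = 0.00277), and the others gave -2.48 and -2.61, the latter -1.73 without background correction. Tead4, which binds M-CAT elements, fell by 1.66 on the log2 scale (adjusted p = 0.00317) and by 0.94 without background correction. Its other tested probe, which was brighter, was at -1.10 (limma, adjusted p = 0.00365). Hdac5 and Hdac7 encode class IIa histone deacetylases, which hold MEF2 factors inactive. They rose by 0.96 and 0.89 on 2 Hdac5 probes (adjusted p = 0.00316 and 0.00525) and by 0.86 for Hdac7 (adjusted p = 0.0102). Mef2b rose by 1.38 (adjusted p = 0.0150), but its probe was detected on 1 of 3 scramble arrays and its change was 0.49 without background correction. With knockdown replicate 3 left out, or without filtering, 7 regulator probes were lower.

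Genes for the folding, assembly and turnover of myosin were called in both directions, with 5 of 17 tested probes lower, 4 higher and a median of -0.05. Fbxo32 and Trim63, the ubiquitin ligases atrogin-1 and MuRF1 of muscle wasting, rose. The brightest Fbxo32 probe was higher by 1.02 with a standard error of 0.17 (limma, adjusted p = 0.00797) and the other Fbxo32 probes by 0.91 and 0.84 (0.52 and 0.46 without background correction), whereas Trim63 was higher by 0.60 (adjusted p = 0.0196). Trim54, a relative of Trim63, fell by 0.62 (adjusted p = 0.0145). Unc45a, the general form of a myosin chaperone, was at -0.62 and -0.43 on its 2 probes (adjusted p = 0.0313 and 0.0477), the first at -0.36 without background correction, whereas Unc45b, its form in striated muscle, was not called, at -0.09 and -0.04 (adjusted p = 0.646 and 0.881). Hsp90aa1, a chaperone that works with them, was at -0.44 on 1 probe (adjusted p = 0.0137) and at -0.14 on another (adjusted p = 0.451). These calls depended on single arrays. The number lower was 3 when scramble replicate 1 was left out, 2 when scramble replicate 2 or knockdown replicate 1 or 2 was, and 1 when knockdown replicate 3 was, and it was 2 without filtering. The number higher was 1 when scramble replicate 2 or knockdown replicate 1 or 3 was left out. The brightest Fbxo32 probe kept its call under every alternative. In limma with 1 array left out, Trim54 (adjusted p = 0.0524, knockdown replicate 3) and Hsp90aa1 (adjusted p = 0.0503, knockdown replicate 1) each lost theirs once. Trim63 and the other Fbxo32 probes lost theirs with several arrays, at adjusted p of up to 0.0725 and 0.0821, as did both Unc45a probes, at up to 0.135.

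Partners of the thick filament were lower on 13 of 24 tested probes and higher on 2, with a median of -0.51. Mybpc1, the slow form of myosin-binding protein C, fell by 1.98 and 1.79 on 2 probes (adjusted p = 0.0128 and 0.00937 from limma), and by 1.18 on the first without background correction. Mylk2, the skeletal myosin light chain kinase, fell by 1.29 and 1.28 (adjusted p = 0.00317 for each). A dimmer Mylk2 probe, also among those lower, was detected on each scramble array and on 0 of the 3 arrays with knockdown. It was at least 1.46-fold lower with the background correction used here. Titin (TTN), the giant spring of the sarcomere, disagreed between probes. It was higher by 1.77 on ILMN_1228221 (adjusted p = 0.00277) and by 0.76 on the dim ILMN_2744368 (adjusted p = 0.0309), while 3 other probes of the gene were lower and 2 were not called, at -0.38 and 0.10 (adjusted p = 0.212 and 0.666). Both higher probes rest on the gene name given by the array, so which transcripts they match was not settled, and the dim one was at 0.24 without background correction. With knockdown replicate 3 left out, 6 partner probes were lower, and 8 were without filtering. The dim titin probe lost its call without filtering and when any single array other than scramble replicate 3 was left out (limma, adjusted p of up to 0.0991).

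Genes of fast fibres outside the myosin family were lower on 8 of 9 tested probes, with a median of -0.48. Those of slow fibres were lower on 2 of 12, with a median of -0.08. Several probes can belong to 1 gene, and by gene 6 of 7 fast and 2 of 7 slow ones had a probe called lower. Partners of the thick filament, among them the slow form Mybpc1 that fell, are in neither list. Pvalb, the calcium buffer parvalbumin of fast fibres, had the largest change and fell by 2.73 with a standard error of 0.23 (limma, adjusted p = 0.00267). Casq1, which stores calcium in the sarcoplasmic reticulum, fell by 1.09 (adjusted p = 0.00714) and by 0.65 without background correction. The fast troponins Tnnc2 and Tnnt3 fell by 0.82 and 0.52 (adjusted p = 0.00593 and 0.0164). In the slow list, Myoz2 was at -0.41 (adjusted p = 0.0233) and Tpm3 at -0.38 (adjusted p = 0.0301) on 1 probe each. Their other tested probes were not called, at 0.41 for Myoz2 and between -0.21 and 0.12 for Tpm3. The fast count was 5 when scramble replicate 2 or 3 or knockdown replicate 1 was left out, 3 when knockdown replicate 3 was, which also ended the call of Tnnt3 (limma, adjusted p = 0.0524), and 5 with background correction and scaling to the 75th percentile. The slow count was 0 with that scaling, without filtering, or when scramble replicate 2 or 3 or knockdown replicate 1 or 3 was left out. Myoz2 and Tpm3 then had adjusted p of up to 0.0867 and 0.121 (limma). The difference between both lists was not tested.

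**Figure D4:**
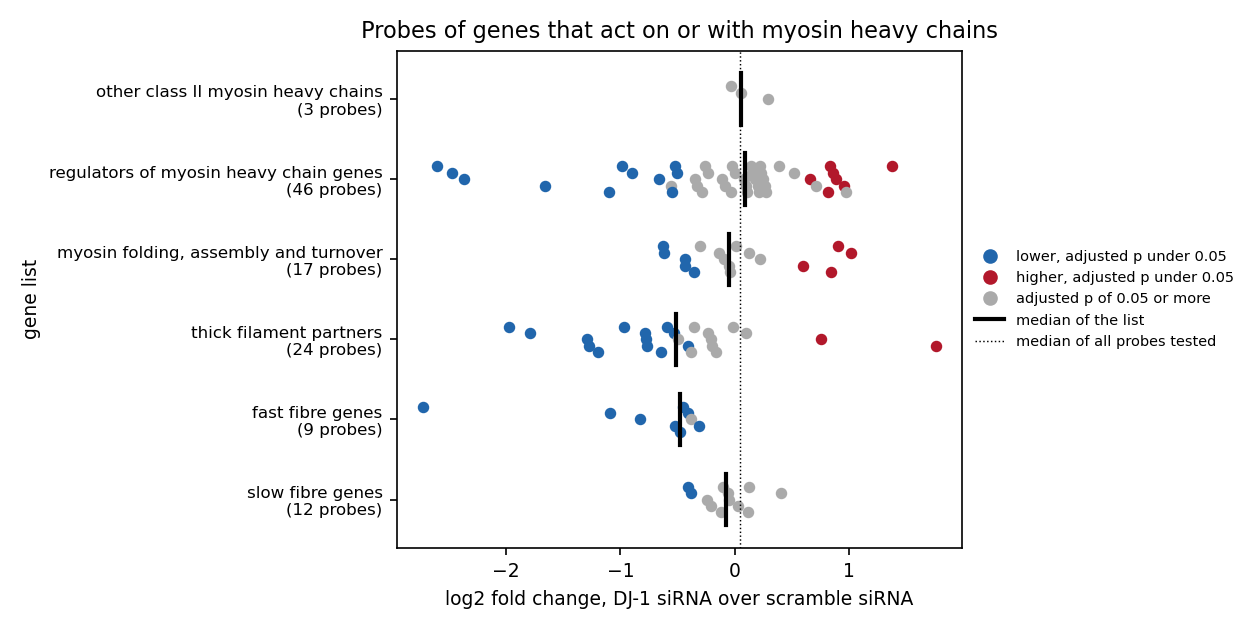
Log2 fold change (DJ-1 siRNA over scramble siRNA) of each tested probe in 6 lists of genes, blue where lower and red where higher at an adjusted p under 0.05, with the median of each list as a bar and that of all probes as a dotted line. Fast fibre genes and thick filament partners have medians of -0.48 and -0.51, beside 0.05 over all probes.

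Markers of the cells were read beside these lists. All 6 measured myotube marker genes were detected, and the brightest was Acta1, the actin of skeletal muscle, at 34795.5 to 47806.9. The summed signal of the myotube markers was 95971.4, 104047.7 and 92445.6 with scramble siRNA against 87068.4, 99100.2 and 75188.2 after knockdown, and 7 of 13 tested probes were lower and 2 higher. Of these 13, 8 are probes of titin and Tnnt3 already counted above, with 4 of the 7 lower and both higher ones among them. Acta1 and Ckm were not called, at -0.005 and -0.07 (limma, adjusted p = 0.977 and 0.705). The highest signal of any probe on an array was 44329.6 to 52359.5, and whether lying so near it limits a change of Acta1 was not tested. Des was called lower, at -0.56 (limma, adjusted p = 0.0076), as was Mymk, at -0.66 and -0.63 (adjusted p = 0.0195 and 0.0115). The median over the tested myotube marker probes was -0.52. Of the markers of undifferentiated myoblasts, Id1 was the brightest, both tested probes (Id1 and Id3) were lower and Pax7 was detected on 0 arrays. Their summed signal was 1221.5, 1462.9 and 1303.0 with scramble siRNA against 997.7, 1054.7 and 871.6 after knockdown. Of the markers of dividing cells, led by Cdk1, 1 of 8 tested probes was lower and 0 were higher (3 at an unadjusted p under 0.05, limma), and their summed signal was 6732.7, 7070.2 and 6164.8 against 6262.3, 7501.8 and 5747.1. Of the adipocyte markers, Adipoq and Plin1 were not detected on any array and the brightest, Fabp4, on 1. Of the 4 osteoblast markers, 3 were detected on at least 3 arrays, led by Bglap at 198.6 to 283.0 on all 6, and Sp7 on 0. With limma, 0 of their 4 tested probes had an adjusted p under 0.05 and 1 an unadjusted p under 0.05. As 5 of their 9 probes were detected on 0 arrays, their summed signal is mostly background and says little of such cells. It was 1537.3, 1566.8 and 1497.9 with scramble siRNA against 1512.2, 1631.4 and 1411.6 after knockdown. The part of a shift in differentiation in the myosin differences was not tested.

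For each gene the 3 probes most like its brightest detected probe were sought outside the 7 genes, by the root mean square distance of log2 signal relative to the scramble mean over the 6 arrays. MYH1 was closest to Tspan8 (0.09), 4831437C03RIK (0.15) and Tnfrsf11b (0.16). MYH8 was closest to a RIKEN cDNA (probe ILMN_2747802, 0.08), LOC638935 (0.08) and Actn2 (0.10), an actinin of the Z-disc. MYH3 was closest to Art1 (0.02), Haghl (0.03) and Cemip2 (0.03). Near background, where the size of a difference depends on the background correction, MYH4 was closest to IGH-6 on 2 probes (0.47 and 0.50) and to TCEAL7 (0.60), MYH2 was closest to Adprhl1, E2f2 and Gja5 (0.15 to 0.18), MYH6 to H2bc21, Hoxa2 and Sp1 (0.05 to 0.11), and MYH7 to Lrif1, 6430548M08Rik and Crem (0.07 to 0.08). Likeness over 6 arrays in 2 groups mostly reflects the size of the difference between the groups.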

How the data were processed

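Total RNA of 3 scramble siRNA and 3 DJ-1 siRNA samples was measured on 1 chip. The authors deposited, per the file headers, the mean signal intensity of each probe without normalization, with its detection p-value, its standard error over beads and its bead number, which the authors deposited beside it. All columns were used. In R 4.3.3 with limma 3.58.1, the normexp background correction (offset 16) took the level of the negative controls from the detection p-values, and quantile normalization and log2 followed. The moderated test of limma (lmFit, eBayes) was run on the 17890 probes that at least 3 arrays detected (detection p under 0.05). Benjamini-Hochberg adjustment covered these 17890 probes, and the threshold was 0.05. The steps were tested on simulated data, where false calls lay almost entirely among probes near background. Of the 5387 called probes, 592 (11.0%) had a log2 mean under 6, and calls of such probes are less sure. Probes were named by Entrez gene number or accession from the RefSeq table of GRCm38.p6 where these matched. The probe of MYH2, 4 tested probes of titin and 1 each of Myh9, Mylk2 and Myoz2 keep the name given by the array. The members and the gene lists were chosen with earlier results of these data known. Probes named are all of the 7 genes, Park7, the other class II chains, up to 4 called falls and 4 called rises per list among probes detected on every array of a group, and the nearest patterns, with probes of a named gene or of Unc45b that were not called. Further called probes of Tead4, Mylk2 and Nfatc1 and markers of the cells are named beside them. Alternatives were no background correction, scaling to the 75th percentile, an offset of 50, no filter, detection p under 0.01 on all 6 arrays, a trend of the prior variance, the replicate number as a block, and each array left out. The number of arrays limits the precision.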

Additional observations from a re-analysis of the deposited data

How the results depend on the processing

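Park7 kept its direction and its side of the threshold under all 14 alternatives, with log2 fold changes of -1.24 to -1.003. The filters, the variance trend and the block cannot change a difference of normalized means, so that 10 of the 14 bear on the members. Without background correction, the dimmer MYH1 probe was at -1.47 with quantile normalization and -1.48 with scaling to the 75th percentile, MYH2 at -0.58 and -0.53, and MYH4 at -1.91 and -1.90. With an offset of 50, MYH2 was at -0.96 and MYH4 at -2.88. These values of MYH2 rest on readings at background after knockdown. With scaling to the 75th percentile, MYH3 was at 0.046 with and -0.011 without background correction. The count of called probes was 3519 without a filter, where 45281 probes were tested, and 2444 to 5302 with 1 array left out, lowest without DJ-1 siRNA replicate 1 (2444) and replicate 3 (2612). Over the 6 lists, 39 probes were lower and 13 higher. These were 23 lower without a filter, and 17 to 33 lower and 7 to 14 higher with 1 array left out. With the replicate number as a block, 4350 probes were called, the folding list had 3 probes lower in place of 5, and the slow list 0 in place of 2 (limma, adjusted p = 0.0556 for Myoz2 and 0.0676 for Tpm3). Same-numbered arrays deviated from their group means with correlations of 0.05, 0.05 and 0.02, so that the numbers are not taken to pair the samples. Signal over background limits MYH2, MYH4, MYH6, MYH7 and dim probes of other genes, and the cause of the other shifts was not tested.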

Other observations

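Myl1, Myod1 and Myog were looked at after their values were seen. Myl1 encodes the essential light chains of fast muscle myosin. One of its probes (ILMN_2694907) fell by 1.20 on the log2 scale (adjusted p = 0.00309 from limma), while the other (ILMN_2878542) had a fold change of -0.01 (adjusted p = 0.947). The log2 means of the latter were 15.13 with scramble siRNA and 15.12 after knockdown, near the top of the signal range. Whether this limits a change was not tested. Myod1, a transcription factor that commits cells to muscle, fell by 0.90 (adjusted p = 0.00317 from limma). Myog, which acts in terminal differentiation, was at -0.11 and 0.22 on its 2 probes (adjusted p = 0.432 and 0.212), so that no change was called.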
